A study of Mus musculus with 15 samples.

Results

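The nuclear genes for the subunits of oxidative phosphorylation were followed in the livers of newborn mice that lack the miR-379/miR-410 cluster. Members were all probes on the array whose gene name begins as those of complex I (Nduf followed by a, b, c, s or v and a digit), complex II (Sdha to Sdhd), complex III (Uqcr), complex IV (Cox4 to Cox8) or complex V (Atp5), with the brightest probe standing for each gene. This gave 85 of the 34797 gene names on the array, carried by 128 probes. They were 37 genes of complex I, 4 of complex II, 8 of complex III, 19 of complex IV and 17 of complex V. Of these, 83 passed a filter on dim probes (signal well above background on 3 or more of the 15 arrays) and were tested together with all other features, 27549 in all. The 2 others, Cox7b2 and Cox8c, are isoforms known from testis and were well above background on 0 of 15 arrays.

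Liver RNA was taken on postnatal day 1 from 15 pups on a C57BL/6J background, and each pup had its own Agilent 1-colour array. The groups were 7 pups with a deletion of the cluster on the maternal chromosome and low blood glucose (hypoglycaemic KO), 3 pups with the same deletion and higher blood glucose (normoglycaemic KO), and 5 wild-type littermates. The KO pups were divided by their glucose, and the series' design text calls the normoglycaemic KO pups mildly and the hypoglycaemic KO pups severely hypoglycaemic. Blood glucose was 9 to 33 mg/dl (median 16) in hypoglycaemic KO pups, 44 to 56 mg/dl (median 44) in normoglycaemic KO pups and 50 to 72 mg/dl (median 55) in wild-type pups, so that the normoglycaemic KO and wild-type ranges overlapped. The comparisons with wild type share the 5 wild-type libraries, and the p-values measure the spread between pups of these litters.

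Between 57.9% and 76.2% of the probes of an array were well above background. Mirg, a host transcript within the deleted domain, was low in 6 of the 7 hypoglycaemic KO and all 3 normoglycaemic KO livers (−1.23 to −3.02 on the log2 scale, by 1 of its 2 probes). It stood at 0.66 in the library labelled hypoglycaemic KO replicate 2 and at 0.88 to 1.60 in wild-type livers. By the other probe Mirg was −0.16 in that library, 0.33 to 0.97 in wild-type livers and −4.38 to −2.15 in the other KO livers. By both probes this library lay below every wild-type liver, but nearer to them than to the other KO livers. It thus goes against its label, and values without it are given below. Exocrine pancreas markers were high in 3 libraries, by a median of 6.64 above the wild-type mean in normoglycaemic KO replicate 2, 3.39 in hypoglycaemic KO replicate 3 and 3.76 in wild-type replicate 2 (log2, 6 of 7 markers tested). They were 1.25 and 1.14 above that mean, which wild-type replicate 2 raises, in hypoglycaemic KO replicates 2 and 5, and below it in the other 10 libraries. Their summed level ranged from 3.24 to 7.14 in hypoglycaemic KO, 3.65 to 9.42 in normoglycaemic KO and 3.77 to 6.68 in wild-type livers. Pnlip, the pancreatic lipase, was well above background on 1 of 15 arrays. The hepatocyte markers, 8 of 8 tested, had summed levels of 11.5 to 11.7 in hypoglycaemic KO, 11.5 to 11.6 in normoglycaemic KO and 11.4 to 11.8 in wild-type livers.

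Oxidative phosphorylation passes electrons from NADH (complex I) and succinate (complex II) through complex III to oxygen at complex IV, and complex V uses the proton gradient made on the way to form ATP. Complexes I, III, IV and V combine subunits encoded in mitochondrial DNA with many encoded in the nucleus, and complex II is nuclear throughout. In the newborn liver, after the placental glucose supply ends, oxidation of fatty acids feeds this chain and yields the ATP used for gluconeogenesis.

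The name rule also takes in genes whose products are not subunits of the complex they are named after. Ndufa4 is now counted with complex IV, and Cox4nb is the endoplasmic reticulum protein Emc8. Cox7a2l has been described as a factor that joins complexes III and IV into a supercomplex, a role not tested in these mice. Atp5s and Atp5sl are now called Dmac2l and Dmac2. The protein made from Dmac2 is known in human cells as an assembly factor of the membrane arm of complex I. All stayed among the 83 and in the complex of their name. Cox4nb differed by 0.07 in hypoglycaemic KO and by 0.0015 in normoglycaemic KO against wild type. Levels throughout are log2 signals relative to the 75th percentile of the array, so that 0 is the level of that percentile, and levels of different genes are not compared because each probe has its own brightness.

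In the main fit, no subunit gene of the respiratory chain passed the test in any comparison of the groups. Cox8b passed in hypoglycaemic against normoglycaemic KO under some alternative fits, given below. Among the 83 members, 0 passed an adjusted p under 0.05 (limma over all 27549 features, Benjamini-Hochberg) in hypoglycaemic KO against wild type, where 0.0181% of all features passed. Likewise 0 members passed in normoglycaemic KO against wild type, where the share of all features was 0% (with the replicate number as a block, 1 feature and 0 members), and 0 passed in hypoglycaemic against normoglycaemic KO, where it was 0.0544%. At an unadjusted p under 0.05, limma gave 5 members in hypoglycaemic KO against wild type (6.02%, against 18.7% of all features), with 2 higher (9.71% of all features) and 3 lower (8.99%). It gave 1 in normoglycaemic KO against wild type (1.20%, against 4.8% of all features), which was higher (3.08% of all features higher, 1.72% lower). In hypoglycaemic against normoglycaemic KO it gave 5 (6.02%, against 19.3% of all features), with 3 higher (9.37% of all features) and 2 lower (9.97%).

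The differences themselves were small. The median over the 83 members was −0.08 in hypoglycaemic KO against wild type (all features 0.016), −0.10 in normoglycaemic KO against wild type (all features 0.012) and 0.025 in hypoglycaemic against normoglycaemic KO (all features −0.0077), all on the log2 scale. Of the 83, 62 lay below 0 in hypoglycaemic KO against wild type and 74 in normoglycaemic KO against wild type, against 47.3% and 47.2% of all features. The members moved together within a liver, as described below, so that these counts are not 83 separate observations. In single wild-type livers, 5 (replicate 3) to 80 (replicate 2) of the 83 lay below the wild-type mean. In the same comparisons 74 and 76 members differed by less than 0.2. The 95% confidence interval of the difference stayed within 0.5 on either side of 0 for 77 members in hypoglycaemic KO against wild type and for 74 in normoglycaemic KO against wild type. The difference was smaller than the member's own standard deviation within groups for 70 members in hypoglycaemic KO against wild type, for 64 in normoglycaemic KO against wild type and for 69 in hypoglycaemic against normoglycaemic KO.

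**Figure D1:**
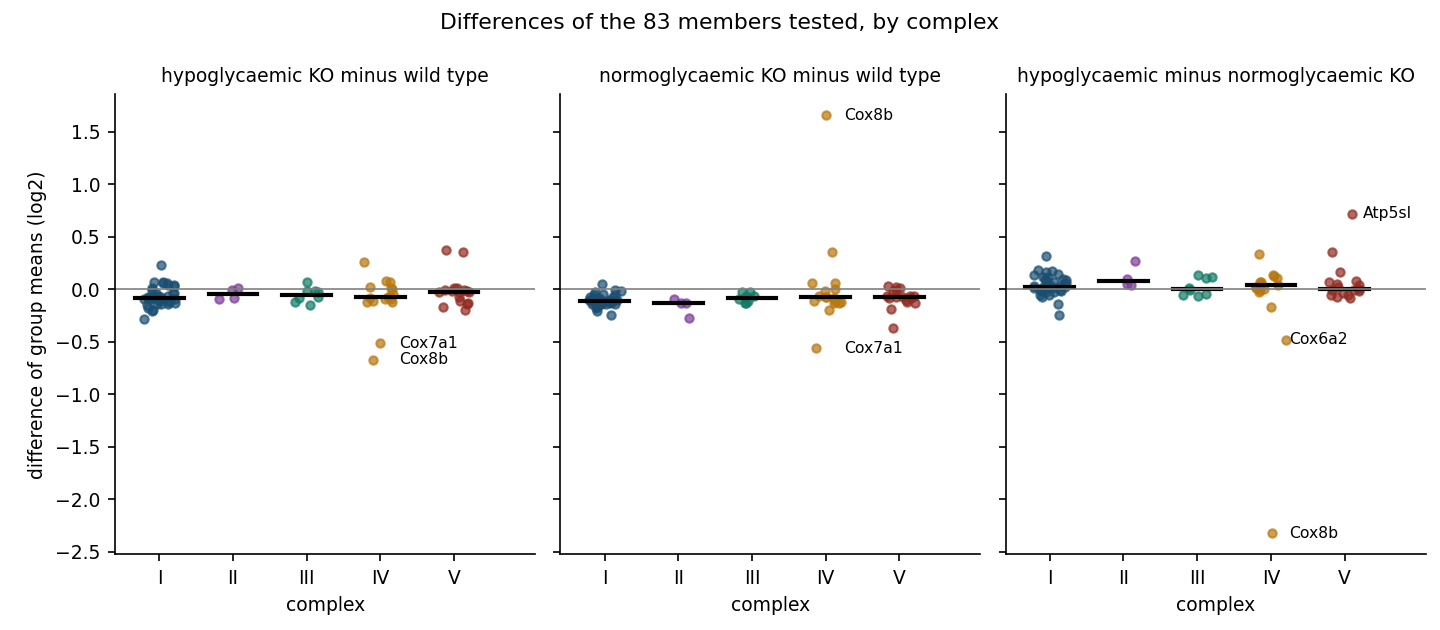
Difference of group means (log2) of each of the 83 members tested, 1 point per gene, by complex (I to V), for hypoglycaemic KO minus wild type, normoglycaemic KO minus wild type and hypoglycaemic minus normoglycaemic KO. Black bars are medians of a complex. Most points lie within 0.2 of 0, and Cox8b (−2.33 in hypoglycaemic against normoglycaemic KO) lies farthest out.

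The small downward medians kept their sign whichever single library was left out, at −0.12 to −0.022 in hypoglycaemic KO and −0.15 to −0.060 in normoglycaemic KO against wild type. For hypoglycaemic KO against wild type, the members' median was −0.12 once wild-type replicate 2 was left out, and −0.022 with hypoglycaemic KO replicate 5 left out. With hypoglycaemic KO replicate 2 left out, the library that goes against its label, it was −0.056. The arrays lay on 2 slides: within slide 1 (4 hypoglycaemic KO and 2 wild-type livers) the median was 0.068, and within slide 2 (3 hypoglycaemic KO and 3 wild-type livers) it was −0.17. One of the 2 wild-type livers of slide 1 was replicate 2, the lowest of that group, so that slide and liver cannot be told apart there. Within slide 1 the median of normoglycaemic KO against wild type was −0.018, and within slide 2 it was −0.14, each from at most 2 normoglycaemic KO livers.

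The subunits moved together from one liver to the next, whatever the group. Each library was given the median, over the members, of their difference from the wild-type mean. In hypoglycaemic KO livers this shift ranged from −0.28 (replicate 5) to 0.13 (replicate 7), with a median of −0.084. In normoglycaemic KO livers it was −0.061, −0.15 and −0.073 in replicates 1 to 3. In wild-type livers it was 0.0023, −0.22, 0.11, 0.059 and 0.042 in replicates 1 to 5. Hypoglycaemic KO replicate 5 and wild-type replicate 2 were thus the lowest livers, with 78 and 80 of 83 members below the wild-type mean, and the ranges of hypoglycaemic KO and wild-type livers overlapped.

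All 5 complexes took part in these shifts. In hypoglycaemic KO replicate 5 the medians were −0.36 for complex I, −0.23 for complex II, −0.23 for complex III, −0.18 for complex IV and −0.26 for complex V. In wild-type replicate 2 they were −0.24, −0.23, −0.23, −0.11 and −0.22 for complexes I to V. In hypoglycaemic KO replicate 7 they were 0.15, 0.065, 0.13, 0.10 and 0.087. The median of all features lay between −0.055 and 0.056 in all 15 libraries, and these shifts exceed it. Their size, and which livers were lowest, depended on the scaling. In hypoglycaemic KO replicate 5, wild-type replicate 2 and hypoglycaemic KO replicate 7, quantile normalization gave members' medians of −0.23, −0.10 and 0.038. The authors' deposited values gave −0.24, −0.11 and 0.027, and median centring −0.19, −0.25 and 0.19. With each of these, hypoglycaemic KO replicate 2 (−0.14, −0.14 and −0.27) lay below wild-type replicate 2. With median centring it was the lowest liver. Hypoglycaemic KO replicate 6 also lay below wild-type replicate 2 with quantile normalization (−0.11) and the authors' values (−0.12). The part of probe brightness in these shifts was not tested.

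**Figure D2:**
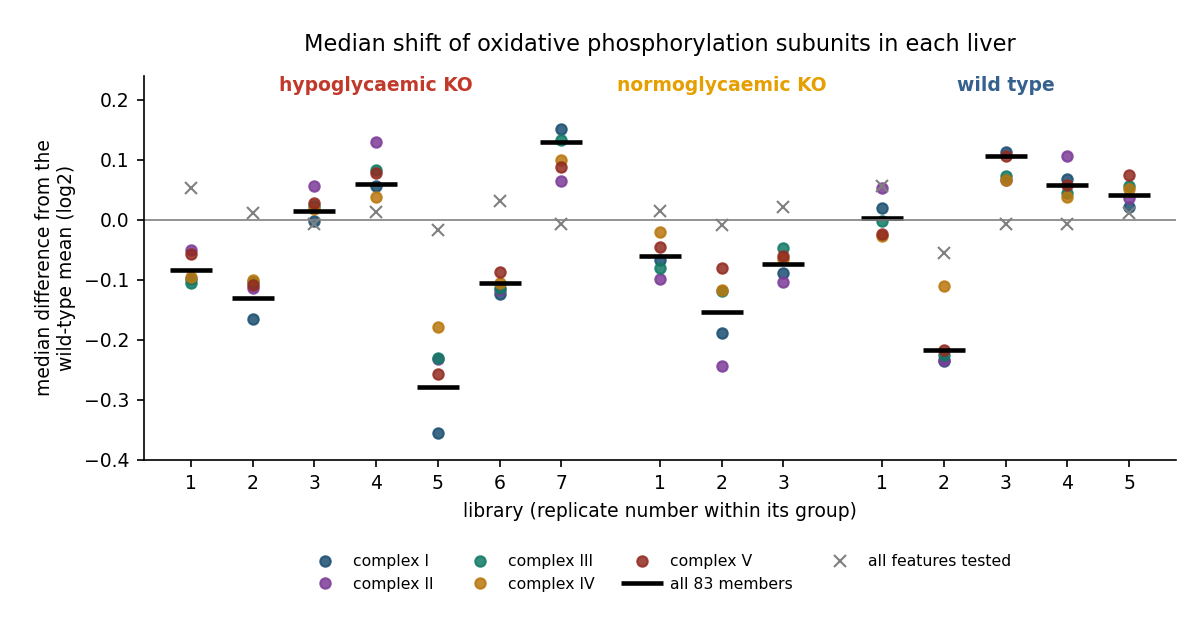
Median difference from the wild-type mean (log2) of the members of each complex (coloured points), of all 83 members (black bars) and of all features tested (grey crosses), in each of the 15 libraries, numbered by replicate within hypoglycaemic KO, normoglycaemic KO and wild type. The complexes move together, and hypoglycaemic KO replicate 5 (−0.28) and wild-type replicate 2 (−0.22) are the lowest.

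After the group means were subtracted, the median correlation between pairs of members across the 15 livers was 0.72 (3403 pairs, quartiles 0.49 and 0.83), against 0.02 between pairs of features well above background on all arrays. These points share the library, its scaling and its RNA, and the value is a description. Within complexes the median was 0.77 for complex I (37 genes), 0.76 for complex II (4 genes), 0.72 for complex III (8 genes), 0.41 for complex IV (17 genes) and 0.72 for complex V (17 genes). With the median of the other members, 56 of 83 genes correlated at 0.8 or above and 29 at 0.9 or above. The closest were Ndufc1 (0.98), a small membrane-arm subunit of complex I, Atp5h (0.97), a peripheral-stalk subunit of ATP synthase, and Ndufb10 (0.97), also of the membrane arm. Among the 17 genes of complex IV, this correlation was 0.65 (Cox6c) to 0.94 (Cox5a) for the 10 isoforms of liver and most tissues. It was −0.13 (Cox6b2) to 0.78 (Cox7a1) for the 5 other tissue isoforms, and 0.47 and 0.54 for Cox7a2l and Cox4nb.

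Some members stood outside this common movement. They were the tissue isoforms Ndufa4l2 (−0.44), Cox6b2 (−0.13), Cox6a2 (−0.05), Cox8b (0.01) and Cox4i2 (0.04), together with Atp5s (−0.05) and Ndufv3 (0.22). Ndufa4l2, a hypoxia-induced paralogue of Ndufa4, reached 1.63 in hypoglycaemic KO replicate 5, the liver with the lowest subunits, against −0.60 to 0.97 in the other hypoglycaemic KO livers, −0.23 to 0.32 in normoglycaemic KO livers and −0.38 to 0.47 in wild-type livers. In wild-type replicate 2, the next lowest liver, it was −0.38.

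The mitochondrially encoded subunits were shifted less than the nuclear ones in the 2 lowest livers, but not in hypoglycaemic KO replicate 7. The 13 genes, ND1 to ND6 with ND4L of complex I, CYTB of complex III, COX1 to COX3 of complex IV and ATP6 and ATP8 of complex V, had a median shift of 0.029 in hypoglycaemic KO replicate 5 and of −0.068 in wild-type replicate 2, and one of 0.19 in hypoglycaemic KO replicate 7, where that of the 83 nuclear members was 0.13. Over all libraries their shift ranged from −0.12 to 0.19 in hypoglycaemic KO, from −0.047 to −0.0083 in normoglycaemic KO and from −0.068 to 0.090 in wild-type livers. Group medians of the 13 were −0.030 in hypoglycaemic KO against wild type and −0.018 in normoglycaemic KO against wild type, with 0 of 13 called in either direction.

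Members that move together invite a look at their promoters, which for many of these genes are known to bind the nuclear respiratory factors. RefSeq windows on GRCm38.p6, reaching from 250 bases before to 50 bases after a start site, were at hand for 68 of the 83 members. The NRF1 core GCGCATGCG, searched on both strands with overlapping matches counted once per gene, was found in 8 of 68 (11.8%), against 1.95% of all 27025 genes of the table and 2.61% of its 17492 protein-coding genes. The 8 were Ndufa8, Ndufa11, Uqcrc1, Uqcr11, Cox6a1, Atp5g2, Atp5k and Atp5l. In 5 of them a 10-letter palindrome holds the core on both strands. Below are the 4 of these with the palindrome (in capitals) before the start site, while in Uqcrc1 it lies after it; they are written 5′ to 3′ along the gene, with offsets counted from the start site as 0.
Atp5k (chr5:108434421-108434485, minus strand, offsets -86 to -22): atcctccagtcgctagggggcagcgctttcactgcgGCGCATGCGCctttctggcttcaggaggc
Ndufa11 (chr17:56717666-56717730, plus strand, offsets -96 to -32): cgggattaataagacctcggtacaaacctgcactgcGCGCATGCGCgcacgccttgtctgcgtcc
Atp5g2 (chr15:102671061-102671125, minus strand, offsets -78 to -14): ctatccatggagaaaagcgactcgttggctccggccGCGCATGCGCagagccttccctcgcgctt
Cox6a1 (chr5:115349077-115349156, minus strand, offsets -198 to -119): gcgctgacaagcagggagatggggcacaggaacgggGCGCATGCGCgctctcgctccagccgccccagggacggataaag

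The core AAGATGGCG, part of the site bound by YY1, was also found in 8 of 68 (11.8%), against 1.64% of all genes and 2.14% of protein-coding genes. The 8 were Ndufa9, Ndufc1, Ndufs4, Ndufs6, Ndufs7, Atp5j, Atp5j2 and Atp5sl. The core lay just after the start site in Atp5j2 (offset 23) and Atp5sl (offset 26, with another match at -53), and before it in Atp5j (offset -88). It also lay just after the start site in 5 complex I genes, shown with the core in capitals.
Ndufs4 (chr13:114388045-114388071, minus strand, offsets 23 to 49): tttgcctacaggAAGATGGCGgcggtc
Ndufs6 (chr13:73328433-73328461, minus strand, offsets 21 to 49): agggtcaccggcAAGATGGCGgcggtgct
Ndufs7 (chr10:80249461-80249490, plus strand, offsets 12 to 41): aaggccgaggccAAGATGGCGgcgctggcg
Ndufc1 (chr3:51408916-51408945, minus strand, offsets 10 to 39): agcctgcggaacAAGATGGCGccgtccgta
Ndufa9 (chr6:126849098-126849127, minus strand, offsets 17 to 46): gcattgtgggagAAGATGGCGgccgccgtc

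The ETS core CCGGAAGT, to which GABP binds, was found in 5 of 68 (7.35%; Ndufs3, Uqcrh, Uqcr11, Cox8a and Atp5h), against 4.31% of all genes and 5.69% of protein-coding genes. The ERR element TCAAGGTCA was found in 2 of 68 (2.94%; Sdhd and Atp5g3), against 0.466% of all genes and 0.377% of protein-coding genes. A match of letters is a description and does not show binding.

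Complex I oxidises NADH. Its 16 peripheral-arm members, which hold the NADH site and the iron-sulfur clusters, had a median difference of −0.086 in hypoglycaemic KO against wild type (12 below 0, from −0.28 to 0.066) and of −0.12 in normoglycaemic KO against wild type (16 below 0). The 19 membrane-arm members, which surround the proton-pumping subunits, had medians of −0.081 (15 below 0, from −0.21 to 0.067) and −0.10 (18 below 0) in the same comparisons. Ndufv1, Ndufs1 and Ndufa9 lay within this range. Ndufv1, which binds NADH and FMN, differed by 0.06 ± 0.10 (SE) in hypoglycaemic KO and by −0.11 ± 0.13 (SE) in normoglycaemic KO against wild type. Ndufs1, which carries iron-sulfur clusters, differed by −0.08 ± 0.09 and −0.18 ± 0.11 (SE) in the same order of comparisons. Ndufa9 differed by −0.12 ± 0.08 and −0.14 ± 0.10 (SE). The adjusted p of these 3 genes (limma) was 0.454 or higher.

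Ndufv3, an accessory subunit beside the NADH site (probe at mm9 chr17:31668209-31668268, plus strand), had the smallest p of all members in hypoglycaemic KO against wild type. Its level in hypoglycaemic KO livers was 5.41 at the lowest, 5.77 at the median and 5.89 at the highest. In normoglycaemic KO livers it was 5.99, 6.00 and 6.00, and in wild-type livers 5.89, 6.15, 5.94, 6.04 and 6.18. Every hypoglycaemic KO liver lay below every normoglycaemic KO and wild-type liver, though the highest hypoglycaemic KO and the lowest wild-type value differ only in the third decimal. The difference was −0.28 ± 0.09 (SE) in hypoglycaemic KO against wild type, a 1.22-fold lower signal, with an adjusted p of 0.128 (limma). It was −0.24 ± 0.10 (SE) against normoglycaemic KO (adjusted p = 0.224, limma), and −0.04 ± 0.11 (SE) in normoglycaemic KO against wild type. Ndufv3 was the 1 member with groups that did not overlap in hypoglycaemic KO against wild type, lower in the KO; 0.744% of all features lay lower without overlap and 0.711% higher. Without the library that goes against its label the difference was −0.30 (adjusted p = 0.122, limma), and without hypoglycaemic KO replicate 5 it was −0.22 (adjusted p = 0.196, limma). Its 2 dimmer probes gave −0.18 and −0.036.

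Ndufa13, a membrane-arm subunit also known as Grim19 (mm9 chr8:72418102-72418161, minus strand), ranged from 6.51 to 7.00 with a median of 6.92 in hypoglycaemic KO livers. It was 6.96, 7.00 and 6.98 in normoglycaemic KO and 6.96, 7.07, 7.03, 7.03 and 7.09 in wild-type livers. Most hypoglycaemic KO livers lay under the other groups, but replicate 7 lay within the wild-type range. The difference from wild type was −0.20 ± 0.08 (SE, adjusted p = 0.207, limma).

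The other named members of complex I, by gene name, in hypoglycaemic KO against wild type were Ndufb7 (−0.21, adjusted p = 0.286) as the next lowest, and Ndufa4l2 (0.24, adjusted p = 0.728) and Ndufa8 (0.07, adjusted p = 0.832) as the highest, all by limma. In normoglycaemic KO against wild type, Ndufa4 (−0.25) and Ndufs4 (−0.21) were lowest and Ndufa8 (0.05) and Ndufa10 (−0.0050) highest, each with an adjusted p of 0.965 or more (limma). Ndufb2 and Ndufb11, small membrane-arm subunits, were lower in every normoglycaemic KO liver than in any wild-type liver. Ndufb2 was 5.34, 5.42 and 5.42 in normoglycaemic KO and 5.43, 5.50, 5.63, 5.51 and 5.52 in wild-type livers, and Ndufb11 differed by −0.10. These 2 were the members lower without overlap, a state that 1.54% of all features reached. Cox8b, described below, was the 1 member higher without overlap, as 2.35% of all features were.

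Complex II, succinate dehydrogenase, is shared with the tricarboxylic acid cycle. Its 4 genes had a median difference of −0.041 in hypoglycaemic KO and of −0.13 in normoglycaemic KO against wild type. Sdhb, the iron-sulfur subunit, ranged from 6.54 to 7.04 with a median of 6.74 in hypoglycaemic KO livers. It was 6.63, 6.32 and 6.55 in normoglycaemic KO and 6.95, 6.14, 6.99, 6.98 and 6.81 in wild-type livers. The lowest value of all belonged to wild-type replicate 2, and the groups overlapped. Sdhb differed by −0.27 ± 0.18 (SE) in normoglycaemic KO against wild type (adjusted p = 0.965, limma). Sdha, the flavin subunit, differed by −0.08 in hypoglycaemic KO and by −0.13 in normoglycaemic KO against wild type, and the membrane anchors Sdhc and Sdhd by −0.09 and 0.0086 in hypoglycaemic KO against wild type.

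Complex III passes electrons from ubiquinol to cytochrome c. The core subunits Uqcrc1 and Uqcrc2 and the Rieske iron-sulfur protein Uqcrfs1 differed by −0.08, −0.015 and 0.07 in hypoglycaemic KO and by −0.021, −0.13 and −0.06 in normoglycaemic KO against wild type. The 5 small subunits had a median of −0.086 in hypoglycaemic KO against wild type, all 5 below 0, with Uqcr11 (−0.15) and Uqcrq (−0.12) the lowest of complex III. No adjusted p of complex III was under 0.368 in that comparison (limma).

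Complex IV, cytochrome c oxidase, has subunits with isoforms of the liver and most tissues and others of muscle, lung or testis. The 10 common isoforms had a median of −0.065 in hypoglycaemic KO (7 below 0) and −0.11 in normoglycaemic KO (10 below 0) against wild type, and lay between −0.20 and 0.021 in both comparisons. Cox4i1 was 7.53 to 7.88 (median 7.61) in hypoglycaemic KO, 7.57, 7.43 and 7.64 in normoglycaemic KO, and 7.67, 7.44, 7.71, 7.75 and 7.75 in wild-type livers. The groups overlapped, and the difference from wild type was 0.01 in hypoglycaemic KO and −0.12 in normoglycaemic KO livers. Cox5a, Cox5b, Cox6a1, Cox6b1, Cox7a2 and Cox8a differed by 0.02, −0.06, −0.08, 0.0010, −0.11 and −0.10 in hypoglycaemic KO against wild type.

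Cox8b, an isoform of heart, skeletal muscle and brown fat (mm9 chr7:148084852-148084911, minus strand), lay between −5.84 and −4.93 with a median of −5.34 in hypoglycaemic KO livers. It was −3.17, −2.96 and −3.12 in normoglycaemic KO and −5.19, −4.79, −3.27, −6.56 and −3.90 in wild-type livers. The 3 normoglycaemic KO livers were above every other liver, and wild-type replicates 3 and 5 came nearest to them. The probe was well above background in 4 of 7 hypoglycaemic KO, 3 of 3 normoglycaemic KO and 4 of 5 wild-type livers. The difference was −2.33 ± 0.50 (SE, adjusted p = 0.0755) in hypoglycaemic against normoglycaemic KO, the largest of any member, and 1.66 ± 0.53 (SE, adjusted p = 0.965) in normoglycaemic KO against wild type, both by limma. It passed when the 2 KO groups were fitted alone (adjusted p = 0.0137), with normexp background correction (−0.90, adjusted p = 0.0449) and without hypoglycaemic KO replicate 4 (−2.28, adjusted p = 0.0388), all by limma.

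Cox6a2, the heart and skeletal muscle form of subunit VIa, was −2.34 to −1.59 (median −2.13) in hypoglycaemic KO, −1.90, −0.86 and −2.002 in normoglycaemic KO, and −2.33, −2.02, −1.77, −2.23 and −1.37 in wild-type livers. Normoglycaemic KO replicate 2 and wild-type replicate 5 were the highest livers, and the groups overlapped. Cox7a1, the muscle form of subunit VIIa, was −0.49 to 1.61 (median 0.30) in hypoglycaemic KO, −0.05, 0.80 and 0.35 in normoglycaemic KO, and 0.67, 0.37, 1.46, 1.20 and 0.93 in wild-type livers. Hypoglycaemic KO replicate 7 was the highest and replicate 5 the lowest, as for the common subunits. It differed by −0.51 ± 0.32 (SE, adjusted p = 0.406) in hypoglycaemic KO and −0.56 ± 0.40 (SE, adjusted p = 0.965) in normoglycaemic KO against wild type (limma). Cox4i2, the lung form, and Cox6b2, the testis form, differed by 0.08 and −0.12 in hypoglycaemic KO against wild type, with an adjusted p of 0.517 and 0.635 (limma).

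Skeletal muscle markers, 9 of 9 tested, were high in 3 livers, 2 of which had the highest Cox6a2. Their median shift was 2.09 in normoglycaemic KO replicate 2, 1.23 in wild-type replicate 3 and 1.20 in wild-type replicate 5, and 0.34 or lower in the other 12 libraries. Their summed level ranged from 0.26 to 0.92 in hypoglycaemic KO, 0.038 to 2.87 in normoglycaemic KO and −0.66 to 2.03 in wild-type livers. Cox8b was high in all 3 normoglycaemic KO livers, with skeletal muscle shifts of 0.34, 2.09 and −0.47 in replicates 1 to 3. Ucp1, the defining gene of brown fat, was well above background on 0 of 15 arrays. The 4 other brown fat markers had summed levels of 3.99 to 5.26 in hypoglycaemic KO, 3.56 to 4.34 in normoglycaemic KO and 3.08 to 4.44 in wild-type livers. Those of 7 cardiac muscle markers were −0.057 to 1.42, −0.068 to 0.37 and 0.24 to 1.06 in the same order. The part of muscle or brown fat RNA in the Cox6a2 and Cox8b values was not tested. In whole liver RNA, fewer cells of a type and less RNA per cell cannot be told apart.

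**Figure D3:**
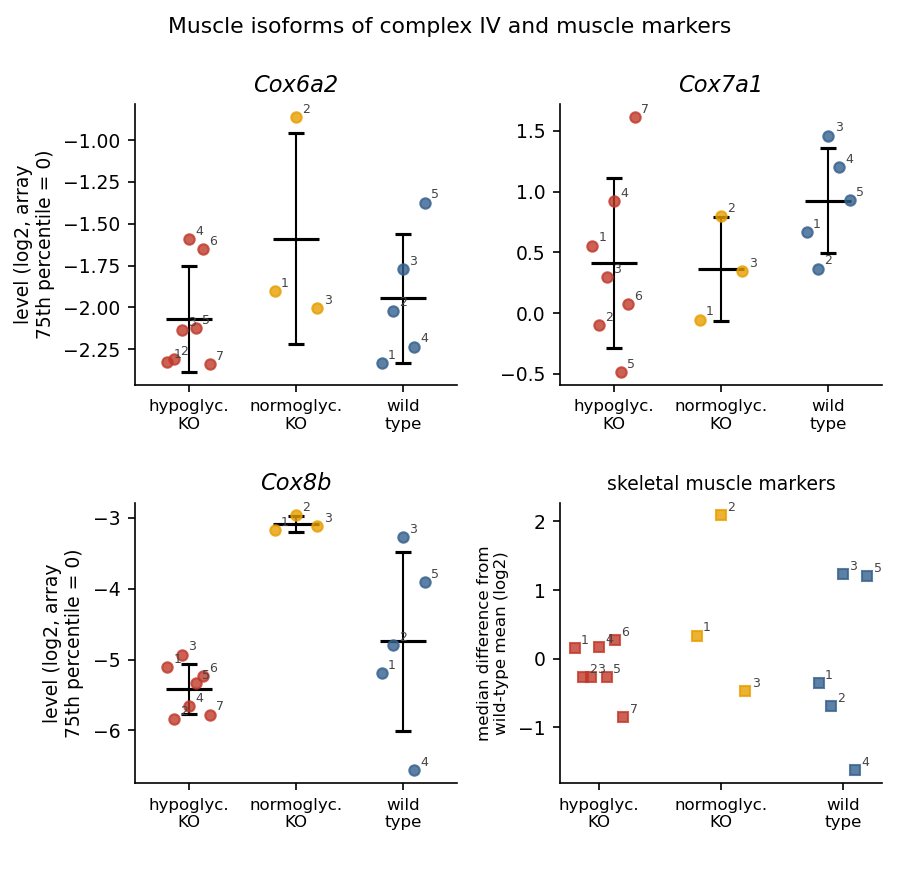
Levels (log2, 0 = 75th percentile of the array) of the muscle isoforms Cox6a2, Cox7a1 and Cox8b, and the median difference of 9 skeletal muscle markers from the wild-type mean, in hypoglycaemic KO, normoglycaemic KO and wild-type livers. Points are livers numbered by replicate, and black bars give mean and SD. Cox8b is high in the 3 normoglycaemic KO livers (−3.17 to −2.96), and the muscle markers in normoglycaemic KO replicate 2 (2.09) and wild-type replicates 3 and 5.

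Complex V, ATP synthase, had the median nearest to 0 in hypoglycaemic KO against wild type (−0.021). The 5 members of the catalytic F1 head had a median of −0.021 in hypoglycaemic KO and −0.016 in normoglycaemic KO against wild type. Atp5b, the catalytic β subunit, was 7.83 to 8.05 (median 7.92) in hypoglycaemic KO, 7.91, 7.88 and 7.86 in normoglycaemic KO, and 7.87, 7.82, 8.04, 7.95 and 8.05 in wild-type livers. The groups overlapped, and its 95% confidence interval in hypoglycaemic KO against wild type reached from −0.16 to 0.11. Atp5a1, the α subunit, differed by −0.0050 in hypoglycaemic KO against wild type, with an interval from −0.15 to 0.14. Atp5e, the small ε subunit of the central stalk (mm9 chr2:174286656-174286715, minus strand), was 6.22 to 6.54 (median 6.38) in hypoglycaemic KO, 6.42, 6.47 and 6.50 in normoglycaemic KO, and 6.45, 6.50, 6.56, 6.62 and 6.63 in wild-type livers. Hypoglycaemic KO replicates 4 and 7 reached into the wild-type range, and the difference was −0.17 ± 0.07 (SE, adjusted p = 0.193, limma). The 10 members of the membrane-bound Fo part and the peripheral stalk had medians of −0.050 in hypoglycaemic KO (8 below 0, Atp5k lowest at −0.20) and −0.077 in normoglycaemic KO (9 below 0, Atp5h lowest at −0.19) against wild type.

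Atp5s, Atp5sl and Cox7a2l, which are named after a complex without being subunits of it, were the members with the highest differences in hypoglycaemic KO livers. Atp5s (mm9 chr12:70842700-70842759, plus strand) was −0.51 to 0.08 (median −0.23) in hypoglycaemic KO, −0.44, −0.58 and −0.67 in normoglycaemic KO, and −0.25, −1.03, −0.64, −0.52 and −0.45 in wild-type livers. Of the 7 hypoglycaemic KO livers, 4 were above every other liver, and replicate 7 lay inside the ranges of both other groups. The difference was 0.37 ± 0.13 (SE, adjusted p = 0.156; 0.26 without wild-type replicate 2) from wild type and 0.36 ± 0.15 (SE, adjusted p = 0.223) from normoglycaemic KO (limma).

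Cox7a2l (mm9 chr17:83901272-83901331, minus strand) was 6.47 to 6.79 (median 6.70) in hypoglycaemic KO, 6.44, 6.20 and 6.34 in normoglycaemic KO, and 6.70, 5.98, 6.38, 6.52 and 6.43 in wild-type livers. All hypoglycaemic KO livers lay above all normoglycaemic KO livers, and wild-type replicates 1 and 4 lay among the hypoglycaemic KO values. The difference was 0.26 ± 0.11 (SE, adjusted p = 0.218) from wild type and 0.33 ± 0.13 (SE, adjusted p = 0.179) from normoglycaemic KO (limma), and its 2 other probes gave 0.25 and 0.36 against wild type. Without wild-type replicate 2 it was 0.15 (adjusted p = 0.456, limma).

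Atp5sl (mm9 chr7:26410510-26410569, plus strand) was 2.54 to 3.46 (median 2.91) in hypoglycaemic KO, 2.29, 2.10 and 2.31 in normoglycaemic KO, and 3.03, 2.08, 2.73, 2.75 and 2.42 in wild-type livers. Hypoglycaemic KO livers were all above normoglycaemic KO livers and overlapped with wild type. The difference was 0.72 ± 0.22 (SE, adjusted p = 0.119) from normoglycaemic KO and 0.35 ± 0.18 (SE, adjusted p = 0.321) from wild type (limma). Atp5sl and Cox7a2l were the 2 members higher without overlap in hypoglycaemic against normoglycaemic KO, as 5.07% of all features were, and Cox8b and Ndufv3 the 2 lower without overlap, as 3.96% were.

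**Figure D4:**
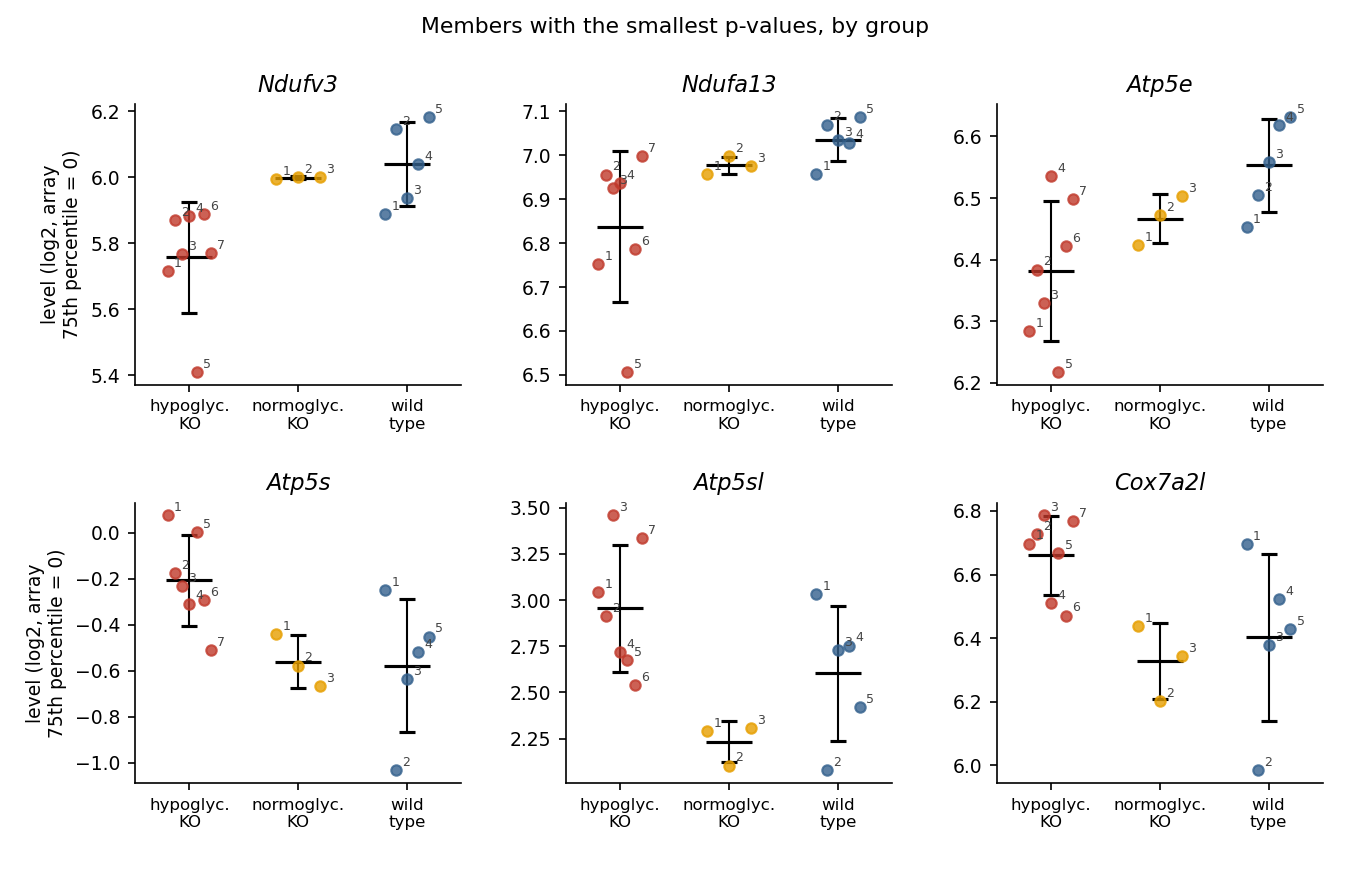
Levels (log2, 0 = 75th percentile of the array) of the 6 members Ndufv3, Ndufa13, Atp5e, Atp5s, Atp5sl and Cox7a2l in hypoglycaemic KO, normoglycaemic KO and wild-type livers. Points are livers numbered by replicate, and black bars give mean and SD. Ndufv3 lies lower in hypoglycaemic KO livers (5.41 to 5.89) than in both other groups, and Atp5sl and Cox7a2l lie higher than in normoglycaemic KO livers.

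Blood glucose was related to the members within groups, with 1 common slope and the group means kept. Of the 83 members, 0 passed an adjusted p under 0.05 (limma), as 0% of all features did, and 6 had an unadjusted p under 0.05 (7.23%, against 18.1% of all features), with 2 upward slopes (8.1% of all features) and 4 downward ones (9.99%). The median slope of the members was −0.00046 per 10 mg/dl (all features −0.017), and by complex the medians lay between −0.0090 (complex IV) and 0.012 (complex III). Within slide 2 the members' median slope was 0.11 (complex I 0.12, complex II 0.076, complex III 0.11, complex IV 0.099, complex V 0.096), and within slide 1 it was −0.012. Higher glucose went with lower Atp5s (−0.17 ± 0.06 per 10 mg/dl, SE, adjusted p = 0.140), Cox7a2l (−0.13 ± 0.05, adjusted p = 0.163), Atp5sl (−0.20 ± 0.09, adjusted p = 0.239) and Ndufa6 (−0.09 ± 0.04, adjusted p = 0.238), by limma. It went with higher Ndufv3 (0.09 ± 0.04, adjusted p = 0.274) and Cox6a2 (0.25 ± 0.11, adjusted p = 0.235), also by limma. The wild-type pup with the highest glucose, 72 mg/dl, was replicate 2, whose subunits and pancreas markers stood apart. Without it the slopes were −0.12 for Atp5s, −0.08 for Cox7a2l and −0.15 for Atp5sl, and the median over the members was 0.041. Within slide 2 the slopes of Cox7a2l (0.0078), Atp5sl (0.040) and Ndufa6 (0.014) turned round.

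**Figure D5:**
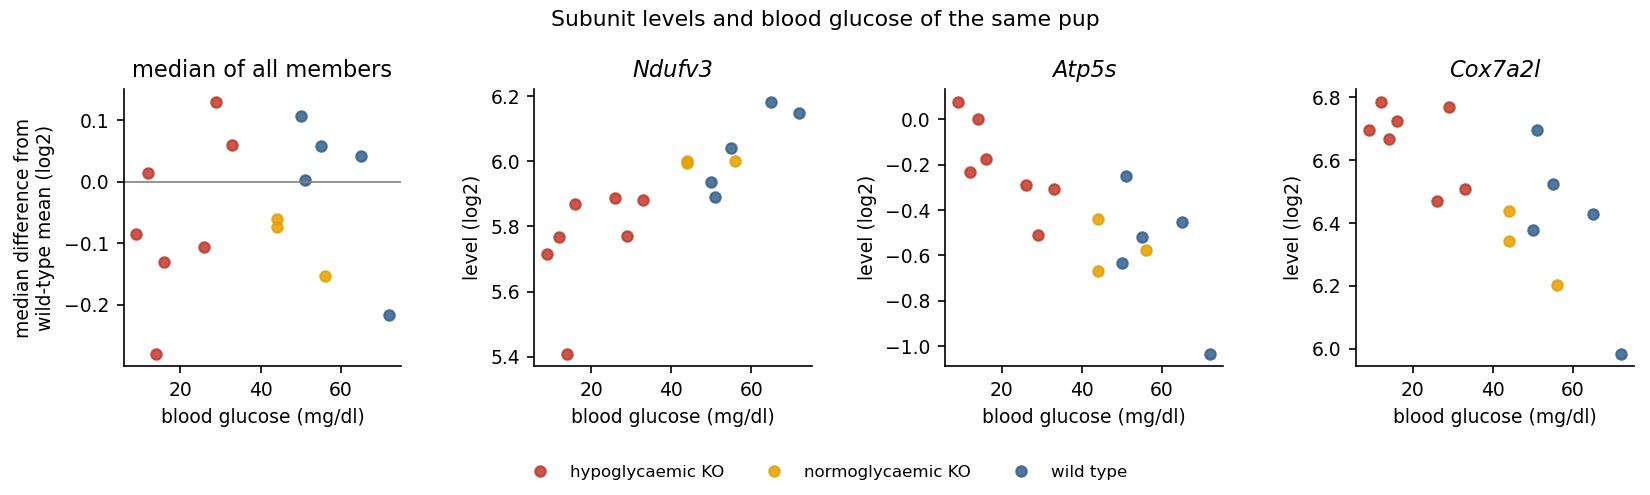
Median difference of all 83 members from the wild-type mean (log2) and levels (log2) of Ndufv3, Atp5s and Cox7a2l against the blood glucose (mg/dl) of the same pup, 1 point per pup of the hypoglycaemic KO, normoglycaemic KO and wild-type groups. The median of the 83 gene slopes within groups is −0.00046 per 10 mg/dl. Within groups, Ndufv3 had an upward slope and Atp5s and Cox7a2l downward ones, none with an adjusted p under 0.05 (limma). That of Cox7a2l turned round within slide 2 (0.0078). The points also carry the differences between groups.

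In the rest of the respiratory chain, 0 genes were called in each list and comparison below (limma), with the lists chosen with earlier results of these data known. The 10 other subunits and assembly factors of complex I had a median of −0.092 in hypoglycaemic KO against wild type (8 below 0), and the 14 assembly factors of complex IV one of −0.056. The median was −0.10 for 3 assembly factors of complex II (3 below 0), 0.083 for 6 other genes of complex III (5 above 0) and 0.12 for 9 genes around complex V (5 above 0). In complex III, Lyrm7, which helps to insert the Rieske protein, differed by 0.82 ± 0.35 (SE, adjusted p = 0.232), and among the complex IV factors Cox10, which makes haem O, by 0.70 ± 0.20 (SE, adjusted p = 0.113), both in hypoglycaemic KO against wild type by limma. Sco2, a copper chaperone of complex IV, differed by 0.76 ± 0.19 (SE, adjusted p = 0.0894, limma) in hypoglycaemic against normoglycaemic KO. In the complex V list, Slc25a4, the ADP/ATP carrier of heart and muscle, differed by 0.55 and Atpif1, the inhibitor of ATP synthase, by −0.16 in hypoglycaemic KO against wild type.

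The 18 regulators of mitochondrial biogenesis and transcription had a median difference of 0.15 in hypoglycaemic KO and −0.083 in normoglycaemic KO against wild type, and of 0.21 in hypoglycaemic against normoglycaemic KO. Their median shift per library was 0.077 to 0.27 in hypoglycaemic KO, −0.19 to 0.020 in normoglycaemic KO and −0.16 to 0.16 in wild-type livers. Markers of 2 other cell types had like medians in hypoglycaemic KO against wild type, 0.15 for 6 endothelial markers (6 above 0) and 0.16 for 8 granulocyte markers (6 above 0). The medians of the remaining liver cell types were −0.065 for 8 hepatocyte, 0.0023 for 8 erythroid and −0.17 for 6 macrophage markers. They were −0.11 for 6 stellate and fibroblast markers and 0.045 for 5 bile duct markers. Summed endothelial levels were 5.47 to 5.93 in hypoglycaemic KO, 5.26 to 5.63 in normoglycaemic KO and 5.21 to 5.82 in wild-type livers. Summed granulocyte levels were 9.48 to 9.75 in hypoglycaemic KO, 9.29 to 9.72 in normoglycaemic KO and 9.46 to 9.61 in wild-type livers, and the part of these cells in the regulators' values was not tested. The coactivator Ppargc1a, which drives both gluconeogenesis and respiratory genes, had a mean level of 3.18 ± 0.97 in the 7 hypoglycaemic KO livers, of 1.25 ± 0.58 in the 3 normoglycaemic KO livers and of 2.40 ± 0.56 in the 5 wild-type livers (SD). It differed by 1.93 ± 0.51 (SE, adjusted p = 0.0973) in hypoglycaemic against normoglycaemic KO (limma). Its relative Ppargc1b differed by 1.39 ± 0.37 (SE, adjusted p = 0.102) in hypoglycaemic KO against wild type (limma). The factors that bind the promoter motifs above differed by 0.09 (Nrf1), 0.18 (Gabpa), 0.52 (Esrra) and 0.16 (Yy1) in hypoglycaemic KO against wild type. In hypoglycaemic against normoglycaemic KO, where Ppargc1a differed by 1.93, the 83 members had a median of 0.025 (54 above 0). In hypoglycaemic KO against wild type, where Ppargc1b differed by 1.39, their median was −0.08. Neither coactivator passed, and a link with the members was not tested.

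The tricarboxylic acid cycle (14 genes) had medians of 0.059 in hypoglycaemic KO and −0.10 in normoglycaemic KO against wild type, with Idh3a (0.52) and Fh1 (0.51) the highest in hypoglycaemic KO. Ubiquinone synthesis and other electron entry (18 genes) had medians of −0.041 and −0.085 in the same comparisons, and Coq3, well above background on 9 of 15 arrays, differed by −1.73 ± 0.46 (SE, adjusted p = 0.103, limma) in hypoglycaemic KO against wild type. Slc25a27, a mitochondrial carrier also called Ucp4, differed by 1.37 ± 0.29 (SE, adjusted p = 0.0738, limma) in hypoglycaemic against normoglycaemic KO. No member of these lists passed in either direction.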

How the data were processed

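Per the file headers, the deposited scanner intensities were background-subtracted and detrended by the authors with Feature Extraction 10.10 (Agilent), and arrays were not normalized to each other. The authors' deposited log2 values, for which the submitters' processing notes name limma, follow the logarithm of the spot's median signal (correlation 0.99986 to 0.99999) and served as an alternative. Levels were log2 of the processed signal, less the 75th percentile of the 55681 non-control probes of the array. Spots that Feature Extraction marked as non-uniform or deviating (176 to 546 per array) were set to missing, 0 were saturated, and no member lacked a value. The brightest probe stood for each gene name, if well above background on 3 or more arrays. The number of arrays limits the precision.

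One model of 3 group means was fitted with limma 3.58.1 in R 4.3.3 (12 residual and 1.84 prior degrees of freedom), and a second added a slope on glucose centred within groups. Features were called below an adjusted p of 0.05 (Benjamini-Hochberg, 27549 features). The fits were tested on simulated data. Tables and figures used Python 3.11.15 with pandas 2.3.3 and matplotlib 3.10.9. Alternatives were other background corrections, scalings, filters, probe rules and blocks, and leaving out each library. Leaving out the 3 libraries richest in pancreas markers was added after seeing the data. Sequences are from RefSeq (GRCm38.p6), all 83 members being matched to a current gene, and probe positions are of mm9, per the file headers.

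The members and lists were chosen with earlier results of these data known. Named were fixed core subunits and tissue isoforms, called members, the 2 highest and 2 lowest members of each complex per comparison, and up to 2 genes per list and comparison with the largest differences. The members with an unadjusted p under 0.05, without overlap of groups, and with the highest or lowest correlations were named after their values were seen, as were the genes holding a motif, Atpif1 and the factors binding the motifs. One gene that the rule names is not reported here. Whether replicate numbers pair the samples was checked by the correlation of deviations from group means. All 3 pairs of normoglycaemic KO and wild-type samples exceeded 0.1 (0.38, 0.46 and 0.22), so the blocked count is given beside that comparison, although no source names what a number would share. Of the 8 other pairs 4 did not exceed 0.1 (lowest −0.14).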

Additional observations from a re-analysis of the deposited data

Results flagged for a closer look

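Wild-type replicate 2 was the lowest wild-type liver for many subunits, with a gap to the next liver that was large for a group of 5 by Dixon's criterion. In complex I this held for Ndufa9 (4.26, next 4.47), Ndufs1 (4.96, next 5.27) and Ndufs7 (5.77, next 6.42). In complexes II and III it held for Sdha (4.92, next 5.16), Sdhb (6.14, next 6.81), Uqcrc2 (5.75, next 6.06) and Uqcrh (7.14, next 7.46). In complex IV it held for Cox4i1 (7.44, next 7.67), Cox5a (7.02, next 7.39) and Cox5b (6.29, next 6.64). The median shift of that liver was −0.24 for complex I (next 0.019), −0.23 for complex II (next 0.036) and −0.23 for complex III (next −0.0015). Its exocrine pancreas markers were 3.76 above the wild-type mean, and their part in these values was not tested. Among the hypoglycaemic KO livers, Ndufv3 was far below the rest in replicate 5 (5.41, next 5.72). These are 14 of 106 values examined (13.2%), where chance alone gives about 1 in 20, and members that move together are not independent.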

How the results depend on the processing

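In hypoglycaemic KO against wild type 5 features were called, and 83 with normexp, 24 with median centring, 50 with the authors' values, 2 with no filter, 91 with features above background on all arrays, 15 with slide row as a block, 3 with the compared groups alone, and 0 within slide 1, within slide 2 and without the 3 livers richest in pancreas markers. In normoglycaemic KO against wild type 0 were called, and 2 with quantile normalization, 1 with median centring, 2 with the authors' values, 1 with the all-array filter, 3 within slide 2 and 3 with the compared groups alone. In hypoglycaemic against normoglycaemic KO 15 were called, and 147 with normexp, 8 with median centring, 24 with the percentile over detected probes, 30 with the authors' values, 4 with no filter, 165 with the all-array filter, 9 with the mean of all probes, 2 with both groups alone, 3 within slide 2, and 0 with slide as a block, within slide 1 and without the pancreas-rich livers. For the slope 0 were called, and 343 with normexp, 21 with quantile normalization, 15 with the percentile over detected probes, 290 with the authors' values, 524 with the all-array filter, 4 with slide as a block, 1 within slide 1 and 4636 with no group means.

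Among the members, 0 were called in the 2 comparisons with wild type under any alternative. In hypoglycaemic against normoglycaemic KO, 1 member (Cox8b) was called with normexp, 1 with both groups alone and 1 without hypoglycaemic KO replicate 4. With no group means, where the slope also carries the difference between groups, 6 of the 83 members were called. They were Ndufv3, Ndufa13, Atp5e, Atp5s, Atp5sl and Cox7a2l. In that fit 4636 of the 27549 features were called, a larger share than among the members. Within slide 1 the medians of hypoglycaemic KO against wild type were 0.068 for all members, 0.11 for complex II, 0.074 for III, 0.031 for IV and 0.11 for V, and within slide 2 they were −0.18 for II and −0.14 for V. Complex V in normoglycaemic KO against wild type was 0.050 within slide 1, and within slide 2 the median slope was 0.11 for all members and 0.099 for complex IV. The slopes of Atp5sl (0.040), Cox7a2l (0.0078) and Ndufa6 (0.014) reversed within slide 2. The cause of these changes was not tested.

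The replicate number as a block gave 0 called features in hypoglycaemic KO against wild type, 1 in normoglycaemic KO against wild type, 0 in hypoglycaemic against normoglycaemic KO and 1 for the slope, with members' medians of −0.092, −0.083, −0.00053 and 0.033 in the same order. It changed the call of no member.

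Leaving out 1 library at a time gave these ranges. In hypoglycaemic KO against wild type, 0 to 746 features and 0 to 0 members were called, with medians of −0.12 to −0.022 for all members, −0.14 to −0.026 for complex I, −0.14 to −0.0018 for II, −0.11 to −0.0097 for III, −0.11 to −0.035 for IV and −0.074 to 0.0091 for V. In normoglycaemic KO against wild type, 0 to 2 features and 0 to 0 members were called, with medians of −0.15 to −0.06 for all members, −0.17 to −0.069 for complex I, −0.19 to −0.086 for II, −0.13 to −0.054 for III, −0.14 to −0.044 for IV and −0.10 to −0.04 for V. In hypoglycaemic against normoglycaemic KO, 0 to 952 features and 0 to 1 members were called, with medians of −0.0047 to 0.066 for all members, −0.016 to 0.077 for complex I, 0.048 to 0.11 for II, −0.031 to 0.048 for III, 0.0069 to 0.059 for IV and −0.011 to 0.052 for V. For the slope, 0 to 985 features and 0 to 0 members were called, with medians of −0.029 to 0.041 for all members, −0.03 to 0.049 for complex I, −0.048 to 0.037 for II, −0.02 to 0.043 for III, −0.023 to 0.03 for IV and −0.025 to 0.035 for V. The 746 features came without wild-type replicate 1 (549 without hypoglycaemic KO replicate 4, 138 without replicate 2), the 952 without hypoglycaemic KO replicate 4 and the 985 without hypoglycaemic KO replicate 7. The 3 normoglycaemic KO livers, and within slide 2 the single one, limit every comparison with that group.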
